A study of Mus musculus with 16 samples.

Results

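Blood vessels of 16 mouse rhabdoid tumors were examined through 10 endothelial genes, listed by name and all found among the 24982 genes of the count table. Pecam1, Cdh5, Kdr, Flt1 and Vwf are expressed by endothelium in general, Plvap by fenestrated and other leaky vessels, and Cldn5, Mfsd2a, Slco1c1 and Abcb1a by vessels of the blood-brain barrier. The question was whether tumors inside and outside the brain differed in the amount of endothelial transcripts or in their kind. Each tumor arose in a different Smarcb1flox/flox;R26-CreERT2 mouse on a mixed genetic background, after tamoxifen in utero. Its Cre recombinase is expressed in every tissue, so that Smarcb1, a subunit of the SWI/SNF remodelling complex and the tumor suppressor lost in rhabdoid tumors, could also be deleted in vessels. Of these tumors, 5 lay within the brain (intra-CNS), in mice aged 30 to 180 days given tamoxifen at E6. A further 6 were intracranial but outside the brain (intracranial extra-CNS), in mice aged 52 to 170 days given tamoxifen at E6, E7 or E8. The other 5 were extracranial (back, jaw, nose or mouth), in mice aged 80 to 210 days given tamoxifen at E6 or E8. The study classes the intra-CNS tumors as Shh and all the others, here called extra-CNS, as Myc, so that molecular subgroup, growth within the brain and tamoxifen at E6 cannot be fully told apart. The tumor of mouse 43990A was extracranial in its label and intracranial in the study's own list, and was kept as labelled.

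Endothelium in most organs lets proteins and solutes cross through vesicles or fenestrae, the latter bridged by diaphragms made of the Plvap protein. Brain endothelium instead seals its contacts with claudin 5, suppresses vesicle transport through the lipid transporter Mfsd2a, and carries solute transporters such as Slco1c1 (thyroid hormone) and the efflux pump Abcb1a. Wnt ligands made by neural cells, received by Fzd4 and its co-receptors and relayed by beta-catenin with TCF/LEF factors, are known to switch on this programme and to repress Plvap. ETS factors such as Erg act in endothelium in general.

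Polyadenylated RNA of frozen tumor tissue was sequenced, and total counts ran from 17889968 to 110177889 per tumor, so that 3 counts, taken as the floor, were worth 0.0272 to 0.168 CPM. Such floors cover counting error only. Smarcb1 was still measured at 3.99 to 58.1 TPM in bulk tissue, which holds non-tumor cells. A pair of tumors stood apart by their other cells. The intra-CNS tumor of 29048 held 5472 TPM of 5 oligodendrocyte genes summed, against 19.8 TPM in R26P87. The intracranial extra-CNS tumor of R26P115 held 199516 TPM of Ttr, a choroid plexus gene, which stood at 4535 TPM in 29048 and at or below 3.36 TPM in the other 14 tumors. Bulk RNA does not tell fewer endothelial cells from less RNA per cell.

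Promoters of 3 barrier genes and 1 general endothelial gene are shown first, because TCF/LEF and ETS factors are the known regulators named above. RefSeq promoters (GRCm38.p6), from 250 bases before to 50 bases after the annotated start, were matched for 6 of the 10 genes (not for Pecam1, Cdh5, Vwf and Plvap). Capitals mark every match on either strand to CTTTGNT (TCF/LEF) or GGAAG (ETS). ACAAT (SOX) was also searched and had no match in these 6 promoters. Other letters that SOX factors may bind were not searched. Among 32851 promoters of the same length, 18.6% held the TCF/LEF letters, 71.4% the ETS letters and 31.0% the SOX letters. Mfsd2a (chr4:122961139-122961438, minus strand) had 1 TCF/LEF match, whose first base lay at -156 from the start, and no ETS match. Slco1c1 (chr6:141524104-141524403, plus strand) had 2 TCF/LEF matches (CTTTGTT and its reverse complement form AACAAAG) and 4 ETS matches. Cldn5 (chr16:18776597-18776896, plus strand) had none of these letters. Kdr (chr5:75978406-75978705, minus strand), shown as a general endothelial gene, had 1 ETS match. Of the matched promoters not printed, Flt1 had 3 ETS matches and no TCF/LEF match. The RefSeq entry for Abcb1a (chr5:8566841-8567140) lies at a start upstream of the gene span given below, and its letters are not described. A match describes letters and is no measured binding site.
Mfsd2a: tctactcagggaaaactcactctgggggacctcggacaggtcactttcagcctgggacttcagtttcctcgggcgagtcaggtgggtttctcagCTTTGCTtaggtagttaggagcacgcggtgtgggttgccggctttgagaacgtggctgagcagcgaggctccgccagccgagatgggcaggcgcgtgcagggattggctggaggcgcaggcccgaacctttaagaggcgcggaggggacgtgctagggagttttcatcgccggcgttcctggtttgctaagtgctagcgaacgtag
Slco1c1: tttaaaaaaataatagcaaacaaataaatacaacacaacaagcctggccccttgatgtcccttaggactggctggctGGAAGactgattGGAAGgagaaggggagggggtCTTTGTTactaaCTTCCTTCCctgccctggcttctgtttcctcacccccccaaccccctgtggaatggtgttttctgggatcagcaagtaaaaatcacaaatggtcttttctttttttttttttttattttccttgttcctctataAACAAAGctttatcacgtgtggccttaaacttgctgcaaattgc
Cldn5: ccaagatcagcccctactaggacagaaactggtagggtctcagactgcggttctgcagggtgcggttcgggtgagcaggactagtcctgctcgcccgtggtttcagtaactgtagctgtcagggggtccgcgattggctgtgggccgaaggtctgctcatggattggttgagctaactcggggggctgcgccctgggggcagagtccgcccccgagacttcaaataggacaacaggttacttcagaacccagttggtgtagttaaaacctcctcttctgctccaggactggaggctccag
Kdr: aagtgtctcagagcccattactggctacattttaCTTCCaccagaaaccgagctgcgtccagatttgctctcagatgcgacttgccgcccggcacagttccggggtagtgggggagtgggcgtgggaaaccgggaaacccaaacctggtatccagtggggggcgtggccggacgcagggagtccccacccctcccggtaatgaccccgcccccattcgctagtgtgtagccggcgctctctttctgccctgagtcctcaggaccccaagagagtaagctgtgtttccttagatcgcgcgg

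General endothelial genes were present in every tumor and did not, as a group, separate the sites. In TPM, which allows genes to be compared per length, the lowest value of any of the 5 genes was 0.306 TPM (Vwf in 43990A) and the highest 120 TPM (Pecam1 in 43987A). Pecam1, an adhesion molecule of endothelium that platelets and leukocytes also carry, measured 22.7, 12.2, 18.9, 17.8 and 27.6 TPM in the intra-CNS tumors of 29048, 38594A, 29050A, R26P98 and R26P87. It ranged from 11.3 to 36.3 TPM with a median of 28.5 in the 6 intracranial extra-CNS tumors. In the extracranial tumors of 43825B, 43987A, 43990A, 43998A and R26P123 it measured 43.1, 120, 15.7, 14.4 and 18.6 TPM. The jaw tumor of 43987A thus stood far above the rest, and the groups overlapped. In edgeR's quasi-likelihood fit, Pecam1 was lower in intra-CNS tumors with a log2 fold change of -1.26 (SE 0.51), which missed the threshold (adjusted p = 0.0685, Benjamini-Hochberg over all genes tested, and 0.0479 without R26P170).

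Cdh5, the cadherin of endothelial junctions (chr8:104101625-104144511), measured 13.6, 11.1, 15.1, 20.5 and 19.9 TPM in the intra-CNS tumors in the same order. Its range was 9.79 to 36.6 TPM with a median of 17.9 in the intracranial extra-CNS tumors. The extracranial values were 44.2, 51.5, 13.9, 13.7 and 16.1 TPM. Only 4 of the 11 extra-CNS tumors lay above all intra-CNS tumors. The log2 fold change was -1.07 (SE 0.39) with an adjusted p of 0.0464 in edgeR, just past the threshold of 0.05. This call was lost in 9 of 16 fits that each left out 1 tumor, among them those without 43987A (log2 fold change -0.89), 43825B (-0.93), 43989C (-1.04) or 29225D (-1.08), and those without any single intra-CNS tumor (-0.96 to -1.18). On log2(TPM + 1) the difference was -0.35 (two-sided exact permutation test, p = 0.361).

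Kdr and Flt1, the receptors of vascular endothelial growth factors, were not called between sites. Kdr measured 11.03, 7.42, 10.6, 18.9 and 22.8 TPM in the intra-CNS tumors, 2.80 to 21.6 TPM (median 9.74) in the intracranial extra-CNS tumors, and 7.52, 9.30, 11.7, 5.49 and 4.83 TPM in the extracranial tumors. Flt1 measured 18.1, 4.33, 7.37, 6.12 and 15.2 TPM, then 3.08 to 14.4 TPM (median 9.84), then 5.81, 8.41, 5.20, 3.47 and 4.25 TPM in the same groups. Both genes overlapped between all groups, with edgeR log2 fold changes of 0.06 (SE 0.41, adjusted p = 0.921) and -0.10 (SE 0.43, adjusted p = 0.873) between intra-CNS and extra-CNS tumors. On log2(TPM + 1) the differences were 0.63 for Kdr (exact permutation test, p = 0.116, and 0.0433 without R26P115) and 0.38 for Flt1 (exact permutation test, p = 0.333). TPM carries none of edgeR's library scaling (TMM), whose factors were 1.11 to 1.18 in intra-CNS and 0.782 to 1.05 in extra-CNS tumors. This alone sets intra-CNS values of any gene higher in TPM than under TMM. Vwf, the clotting factor stored by endothelium and platelets, measured 8.21, 6.38, 7.08, 6.55 and 2.39 TPM in the intra-CNS tumors. It spread over 0.673 to 20.5 TPM in the intracranial extra-CNS tumors, whose highest value was that of 29225D. In the extracranial tumors it measured 6.28, 8.43, 0.306, 1.16 and 5.60 TPM. Its log2 fold change of -0.34 (SE 0.71, adjusted p = 0.733) was smaller than its SE.

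Leukocytes and platelets also carry Pecam1, and platelets Vwf. Of 9 genes of these cells, 6 were lower in intra-CNS tumors (beside 13.1% of all genes) and none higher, and their summed level was 81.7 to 139 TPM there against 135 to 1199 TPM in extra-CNS tumors. Ptprc, the common leukocyte antigen, had a log2 fold change of -3.02 (adjusted p = 8.2e-05) and Itga2b, a platelet integrin, one of -1.99 (adjusted p = 0.00838, but 0.0769 when scaled to endothelial reference genes). The platelet chemokine Pf4 was lower (-6.09, adjusted p = 0.000213), at 1.23 to 2.89 TPM in intra-CNS and 8.998 to 371 TPM in extra-CNS tumors. Itgam, a myeloid integrin, was lower as well (-2.63, adjusted p = 8.9e-05), as was the platelet gene Ppbp, named after its value was seen (-6.55, adjusted p = 0.00104, all in edgeR). Of the other platelet genes, Gp1ba and Gp9 were at or near 0 in every tumor (at most 0.0470 and 1.04 TPM). The part of these cells in the Pecam1, Cdh5 and Vwf values was not tested.

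**Figure D1:**
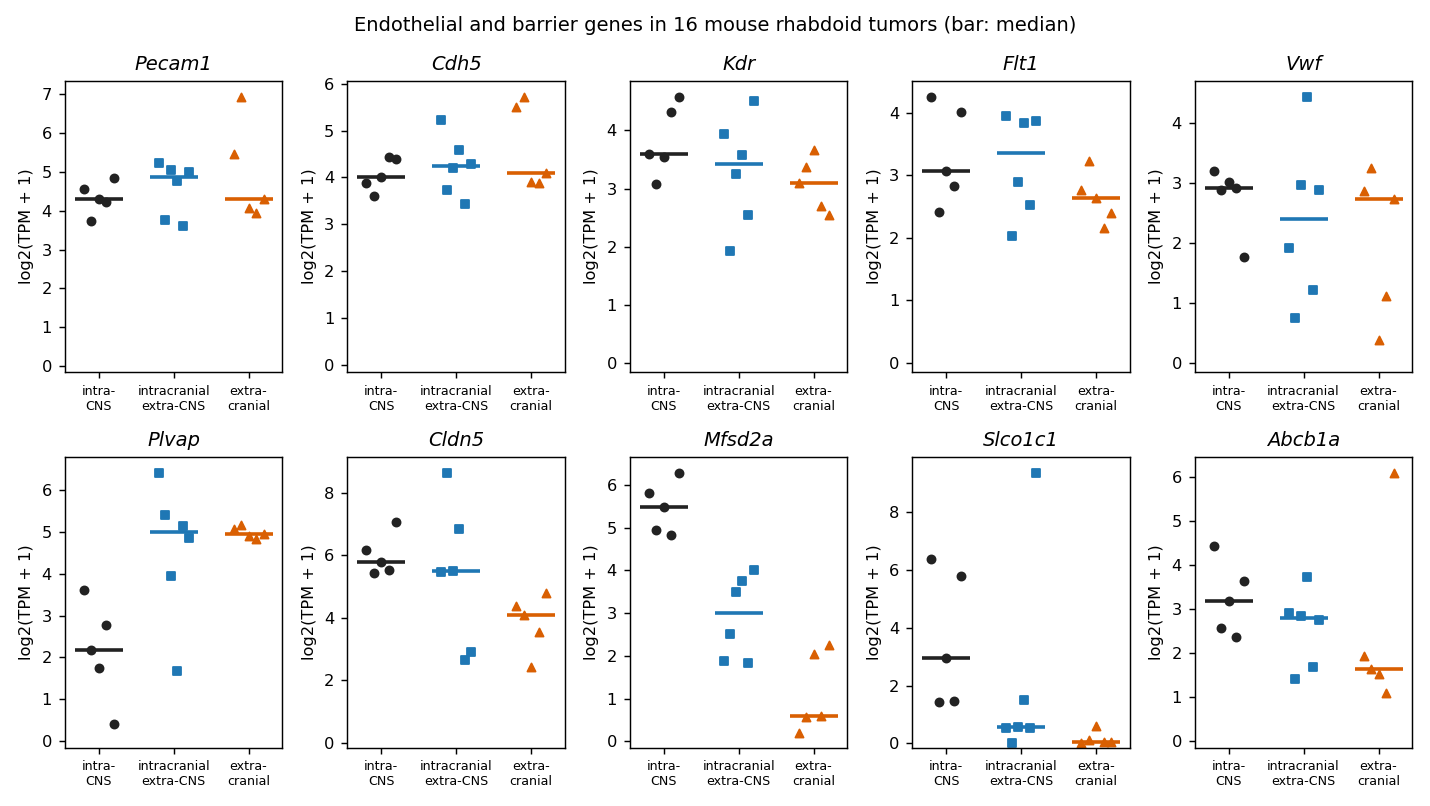
Level of each gene in each tumor, as log2(TPM + 1), by site; every point is 1 tumor and bars are medians (5 intra-CNS, 6 intracranial extra-CNS and 5 extracranial tumors). Plvap is low and Mfsd2a high in the intra-CNS tumors, while Pecam1, Cdh5, Kdr, Flt1 and Vwf overlap between all sites, and single tumors stand out for Slco1c1 (654 TPM) and Abcb1a (67.8 TPM).

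Among the 10 genes, Plvap had the largest decrease that passed the threshold in intra-CNS tumors. The gene (chr8:71497765-71511752, minus strand) measured 11.3, 3.52, 2.38, 5.88 and 0.329 TPM in the intra-CNS tumors. It ranged from 2.19 to 83.4 TPM with a median of 30.9 in the intracranial extra-CNS tumors. The extracranial values were 32.2, 34.6, 28.7, 27.1 and 29.6 TPM, a narrow band for tumors of the back, jaw, nose and mouth. Of the extra-CNS tumors, 10 of 11 lay above every intra-CNS tumor, and the exception was the tumor of 29225D at 2.19 TPM. The level in intra-CNS tumors was 10.1-fold lower (log2 fold change -3.33, SE 0.77, adjusted p = 0.00342 in edgeR), and on log2(TPM + 1) the difference was -2.60 (exact permutation test, p = 0.00321). Plvap overlaps Gtpbp3 on the opposite strand, and whether the counting used strand is not given in the sources used here.

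Mfsd2a showed the opposite pattern. This transporter of lysophosphatidylcholine with docosahexaenoic acid (chr4:122946850-122961188, minus strand) measured 54.6, 29.7, 43.9, 27.5 and 76.6 TPM in the intra-CNS tumors. In the intracranial extra-CNS tumors it ran from 2.58 to 15.2 TPM with a median of 7.52. It measured 0.146, 0.479, 3.09, 0.516 and 3.73 TPM in the extracranial tumors, where the value of 43825B rested on 3 counts. Every intra-CNS tumor therefore lay above every extra-CNS tumor. Mfsd2a was the only one of the 10 genes with no overlap, which 15.3% of all genes showed in this comparison. It was 6.22-fold higher in intra-CNS tumors (log2 fold change 2.64, SE 0.74, adjusted p = 0.0123 in edgeR), and the log2(TPM + 1) difference of 3.36 had the smallest p this design allows (exact permutation test, p = 0.000458). Both Plvap and Mfsd2a passed the threshold in each of the 16 fits without 1 tumor, with log2 fold changes of -3.95 to -3.03 and 2.39 to 3.03. Mice were named by a number or by R26P and a number, and within the numbered mice the log2(TPM + 1) difference of Mfsd2a was 3.53 (exact permutation test, p = 0.0121) and that of Plvap -2.15, which missed 0.05 (exact permutation test, p = 0.0606). Within the R26P mice the differences were 2.85 and -3.37, where 2 against 3 tumors cannot reach 0.05 (exact permutation test, p = 0.200, the smallest possible).

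In all, 3 of the 10 genes were called between intra-CNS and extra-CNS tumors (Cdh5, Plvap and Mfsd2a), against 26% of all 21854 genes tested. A call required an adjusted p under 0.05 together with a log2 fold change above 1 in either direction. Of these, 1 was higher and 2 were lower in the intra-CNS tumors, beside 12.9% and 13.1% of all genes. A count of 3 of 10 is therefore close to the share over all genes. It was 5 of 10 with DESeq2 (beside 29.1% of all genes) and 5 of 10 in edgeR against the extracranial tumors alone (beside 26.2%).

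Cldn5, the main claudin of brain endothelial tight junctions (chr16:18776847-18778262), was high in all intra-CNS tumors and very uneven outside the brain. It measured 70.4, 42.4, 54.6, 45.6 and 132 TPM in the intra-CNS tumors. In the intracranial extra-CNS tumors of 43989C, 43992A, 29941C, 29225D, R26P170 and R26P115 it measured 43.0, 396, 44.6, 113, 5.27 and 6.56 TPM. The extracranial values of 19.8, 16.0, 4.43, 10.6 and 26.9 TPM all lay below the lowest intra-CNS value. The tumor of 43992A held the highest Cldn5 of all together with the lowest Kdr (2.80 TPM) and Flt1 (3.08 TPM), and only 4.73 TPM of Mfsd2a. The log2 fold change was -0.43 (SE 0.94, adjusted p = 0.744 in edgeR), whereas the difference on log2(TPM + 1) was 1.34 (exact permutation test, p = 0.152, and 0.0206 without 43992A). The direction of the fold change turned to 0.77 without 43992A. Against the extracranial tumors alone Cldn5 was higher in intra-CNS tumors, with a log2 fold change of 1.64 (adjusted p = 0.0274 in edgeR).

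Slco1c1, which also occurs in choroid plexus epithelium and astrocytes (chr6:141524368-141570177), was detected in every intra-CNS tumor, at 82.9, 1.68, 6.74, 1.80 and 54.0 TPM. In the intracranial extra-CNS tumors it measured 0.453 TPM in 43989C, 0 in 43992A, 0.479 in 29941C, 1.86 in 29225D, 0.445 in R26P170 and 654 in R26P115. The extracranial tumors stood at 0, 0.0976, 0.500, 0.0230 and 0.0443 TPM. A count of 0 in 43825B and 43992A allows up to 0.138 and 0.151 CPM. Thus 9 of 11 extra-CNS tumors lay below all intra-CNS tumors, while R26P115 exceeded them all. The fold change followed that 1 tumor, with a log2 value of -1.76 (SE 2.35, adjusted p = 0.576) with it and 5.74 (adjusted p = 0.00125 in edgeR) without it. The choroid plexus genes were high in the same tumor, and the 5 of them summed to 203120 TPM in R26P115, 4635 TPM in 29048 and 3.39 to 133 TPM in the other 14 tumors. Of these 5 genes, Aqp1 was lower in intra-CNS tumors (-4.06, adjusted p = 0.0306 in edgeR), at 1.55 to 24.9 TPM against 2.63 to 440 TPM. The other 4 were not called, beside 12.9% higher and 13.1% lower of all genes. In R26P87, Slco1c1 reached 54.0 TPM with the choroid plexus genes at 3.42 TPM. Without both R26P115 and 29048 the log2 fold change was 4.87 (adjusted p = 0.00547 in edgeR). The part of choroid plexus in the value of 29048 was not tested.

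**Figure D2:**
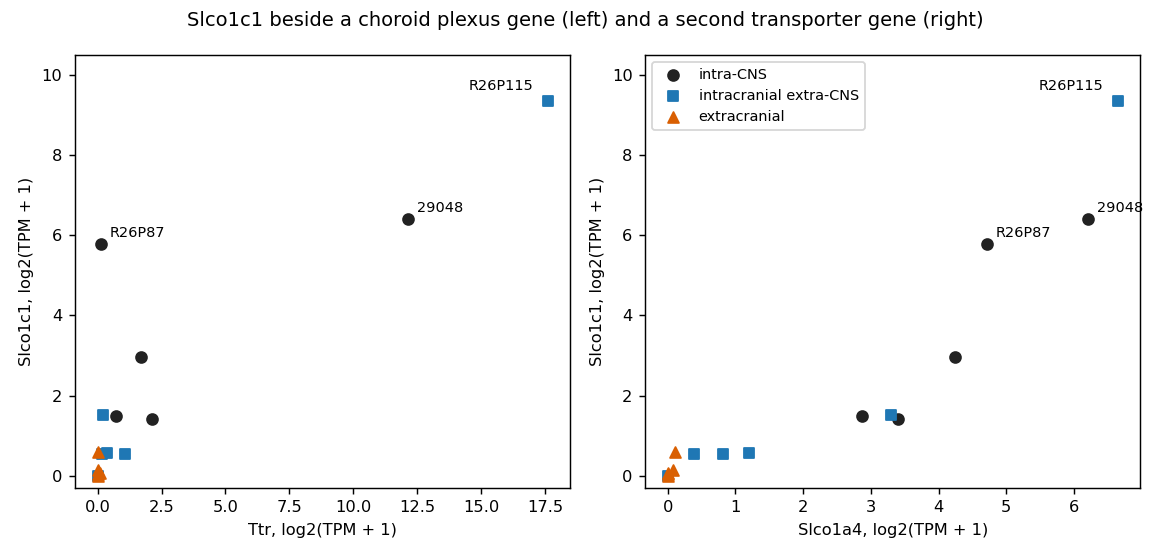
Slco1c1 (vertical axes) against the choroid plexus gene Ttr (left) and the transporter gene Slco1a4 (right), all as log2(TPM + 1), with 1 point per tumor and symbols for site. R26P115 and 29048 are high for Ttr and Slco1c1, whereas R26P87 has 54.0 TPM of Slco1c1 beside 0.0906 TPM of Ttr.

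Abcb1a, which encodes a P-glycoprotein that pumps drugs out of brain endothelium (chr5:8660077-8748575), measured 20.7, 4.99, 8.05, 4.17 and 11.5 TPM in the intra-CNS tumors. It ranged from 1.66 to 12.4 TPM (median 5.94) in the intracranial extra-CNS tumors. It measured 2.86, 2.14, 1.87, 1.13 and 67.8 TPM in the extracranial tumors, so that the jaw tumor of R26P123 was the highest of all while the other 4 lay below every intra-CNS tumor. The log2 fold change was -0.50 (SE 0.88, adjusted p = 0.675 in edgeR) and turned to 0.69 without R26P123, where the log2(TPM + 1) difference was 1.09 (exact permutation test, p = 0.0413). The neighbouring paralog Abcb1b, singled out after its values were seen, was also highest in R26P123, at 57.4 TPM against 1.22 to 41.0 TPM elsewhere. How the counting treated reads that match both paralogs is not given in the sources used here, so both values are uncertain to that extent.

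The order of the genes changed with site. By median TPM, Cldn5 (54.6) and Mfsd2a (43.9) led in intra-CNS tumors and Plvap (3.52) came last. Cldn5 (43.8), Plvap (30.9) and Pecam1 (28.5) led in intracranial extra-CNS tumors. Plvap (29.6), Pecam1 (18.6) and Cdh5 (16.1) led in extracranial tumors, where Mfsd2a (0.516) and Slco1c1 (0.0443) came last. Neighbours in each of these orders overlapped in their ranges over tumors. The mean of the 4 barrier genes minus that of the 5 general endothelial genes, on log2(TPM + 1), had a median of 0.77 (range -0.19 to 1.80) in the intra-CNS tumors. It was -0.42 (-1.36 to 0.70) in the intracranial extra-CNS and -1.44 (-2.89 to 0.09) in the extracranial tumors. Without Slco1c1 the medians were 1.23, -0.17 and -1.01. This descriptive score overlapped between groups with and without Slco1c1.

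**Figure D3:**
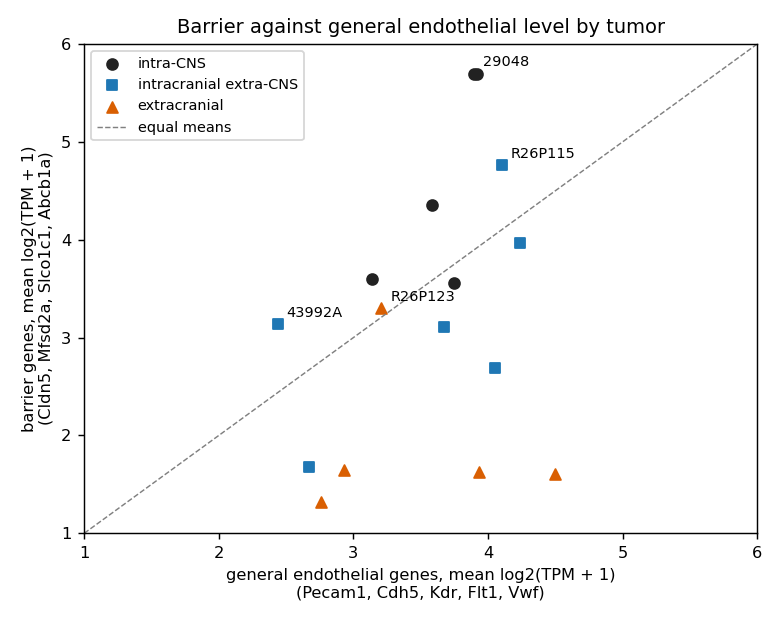
Mean log2(TPM + 1) of Cldn5, Mfsd2a, Slco1c1 and Abcb1a against that of Pecam1, Cdh5, Kdr, Flt1 and Vwf, with 1 point per tumor and a dashed line where both means are equal. Of the intra-CNS tumors 4 of 5 lie above the line, and of the 11 extra-CNS tumors those of 43992A, R26P115 and R26P123 do.

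To compare the kind of endothelium apart from its amount, counts were rescaled to 14 other endothelial genes (Tie1, Tek, Emcn, Esam, Erg, Robo4, Egfl7, Clec14a, Ecscr, Mmrn2, Icam2, Ptprb, Sox18 and Rasip1). Their mean log2(CPM + 1) had a median of 3.45 (range 2.98 to 3.80) in intra-CNS tumors and 3.52 (2.74 to 4.31) in extra-CNS tumors. On this scale, 2 of the 10 genes were called, beside 23.7% of all genes. With DESeq2 4 were called (beside 27.3%), and in edgeR against the extracranial tumors alone 4 were (beside 21.9%). Mfsd2a was higher in intra-CNS tumors (log2 fold change 3.01, SE 0.70, adjusted p = 0.00426) and Plvap was lower (-3.06, SE 0.78, adjusted p = 0.00791, both in edgeR). The median over all genes moved from -0.15 with TMM to 0.12 with this scale, and the calls from 2829 higher and 2860 lower to 3255 higher and 1918 lower. With Pecam1 alone as the reference, Mfsd2a (3.38) and Plvap (-2.58) were called again, as they were with Cdh5 alone (3.33 and -2.43).

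Per tumor, log2(CPM + 1) of Mfsd2a minus the reference mean was 1.11 to 2.14 in the intra-CNS tumors and -3.89 to 0.34 in the extra-CNS tumors, with no overlap. The share of all genes without overlap was not taken on this scale. The same measure for Plvap was -3.49 to -0.40 in the intra-CNS and -2.49 to 2.21 in the extra-CNS tumors, the lowest of which was again 29225D. Relative to the reference, Cdh5 lay at 0.76 to 1.56 in the intra-CNS, 1.73 to 2.73 in the extracranial and 1.09 to 1.78 in the intracranial extra-CNS tumors. Pecam1 lay at 0.999 to 1.39, 1.64 to 3.69 and 1.21 to 1.93 in the same groups. In the fit against all extra-CNS tumors neither was called (Cdh5 -0.61, adjusted p = 0.164; Pecam1 -0.80, adjusted p = 0.158, in edgeR). Within the reference list itself, Emcn, a sialomucin of veins and capillaries, was lower (-1.69 with TMM, adjusted p = 0.0155) in intra-CNS tumors. Sox18, a vascular transcription factor, was higher there (1.52, adjusted p = 0.0492, both in edgeR). The other 12 genes were not called, beside 12.9% higher and 13.1% lower of all genes.

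**Figure D4:**
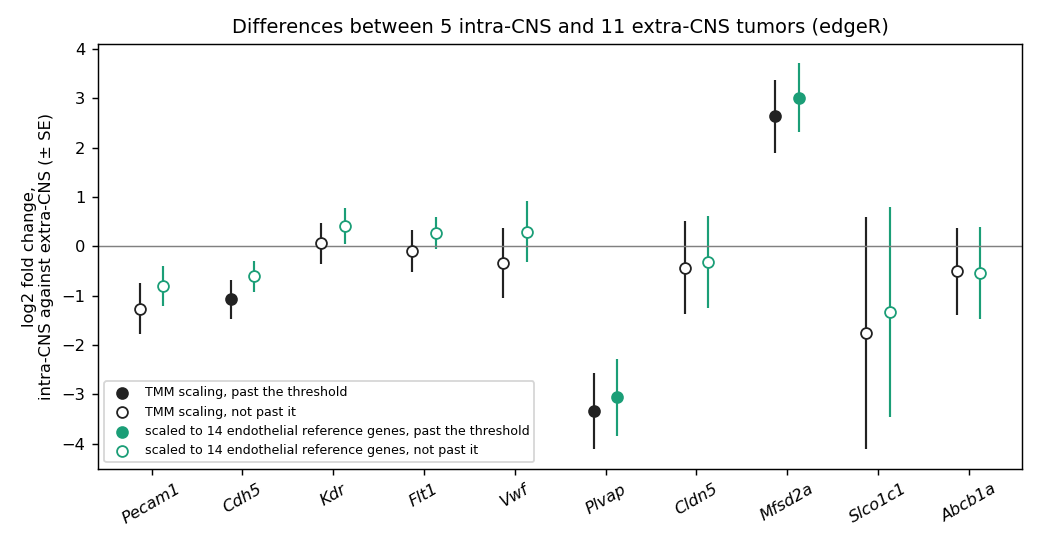
Log2 fold changes of the 10 genes between 5 intra-CNS and 11 extra-CNS tumors in edgeR, with bars of 1 SE, under TMM scaling (black) and scaling to 14 endothelial genes (green); filled points passed the threshold. Plvap (-3.33 and -3.06) and Mfsd2a (2.64 and 3.01) are past it on both scales, Cdh5 with TMM only, and the wide bar of Slco1c1 reflects 1 tumor with 654 TPM.

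Site was then compared within the Myc tumors, between 6 intracranial extra-CNS and 5 extracranial tumors. None of the 10 genes was called by edgeR, where 0.0047% of 21261 genes (1 gene) passed and 2606 had an unadjusted p under 0.05. DESeq2 called 490 genes and again none of these 10, where a gene without an adjusted p counted as not called. Without overlap between the groups were 0 of the 10 genes, beside 0.847% of all genes. The barrier genes Cldn5 (log2 fold change 2.74, SE 1.04, adjusted p = 0.366, and 1.40 without 43992A), Mfsd2a (2.41, SE 0.88, adjusted p = 0.354) and Slco1c1 (9.87, SE 3.07, adjusted p = 0.346, and 2.30 without R26P115) had higher fitted values in the intracranial tumors but missed the threshold. For Mfsd2a, 4 of 6 intracranial tumors lay above all extracranial ones, and the difference in log2(TPM + 1) was 1.79 (exact permutation test, unadjusted p = 0.0260, where 1 of 10 genes fell under 0.05), and with p = 0.0571 without 43825B, 43987A or 43998A. Abcb1a had a log2 fold change of -1.34 (SE 1.03), which turned to 1.52 without R26P123. Plvap (0.20, SE 0.63), Kdr (0.50, SE 0.49), Flt1 (0.80, SE 0.43), Vwf (0.53, SE 0.91), Cdh5 (-0.50, SE 0.46) and Pecam1 (-0.75, SE 0.59) were within 2 SE of 0.

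Other genes of barrier formation were read from a list of 26, in which 5 were higher in intra-CNS tumors, 2 lower and 19 not called, with a median log2 fold change of 0.46 beside -0.15 over all genes. The 7 called of 26 are close to the 26% called over all genes. Wnt7a, a ligand that neural cells present to brain endothelium, was higher (5.23, SE 1.11, adjusted p = 0.00196), at 0.315 to 64.0 TPM in intra-CNS and 0.0231 to 1.62 TPM in extra-CNS tumors. Apcdd1, an inhibitor of Wnt signalling (4.91, adjusted p = 0.000303), and Spock2, a matrix proteoglycan (3.63, adjusted p = 0.00153), were also higher. The other 2 higher genes, named after their values were seen, were Ndp, the ligand norrin (3.48, adjusted p = 0.0212), and Tspan12, a co-receptor of Fzd4 (3.18, adjusted p = 3.3e-05). Neural and tumor cells can express these 5 genes too. The lower genes were Slc2a1, the glucose transporter that hypoxic cells also raise (-2.22, adjusted p = 0.0122), and Pltp, a phospholipid transfer protein (-1.88, adjusted p = 0.0332). Scaled to the endothelial reference genes, 6 of the 26 were higher and 1 lower, and Pltp was not called (-1.61, adjusted p = 0.0598). The vascular transcription factor Foxf2 (-1.48, adjusted p = 0.341) and the Wnt effector Lef1 (0.35, adjusted p = 0.699, all in edgeR) were not called. The transporter genes Slco1a4 and Slc38a5, singled out after their values were seen, were not called (0.69 and 2.54), yet ran from 6.30 to 73.2 and 3.92 to 25.2 TPM in the intra-CNS tumors against at most 0.0754 and 0.0391 TPM in the extracranial ones. Slco1a4 reached 99.2 TPM in R26P115 and Slc38a5 reached 12.2 TPM in 29225D.

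Of 10 tested genes of fenestrated or peripheral vessels, 4 were lower in intra-CNS tumors, 1 higher and 5 not called (median -1.98), beside 13.1% lower and 12.9% higher of all genes. Gpihbp1, which anchors lipoprotein lipase to capillaries outside the brain, was lower (-5.28, SE 0.95, adjusted p = 0.000545), at 0.134 to 1.37 TPM in intra-CNS and 3.01 to 43.7 TPM in extra-CNS tumors. Igfbp3 (-4.17, adjusted p = 0.00149), a binding protein of insulin-like growth factors made by several cell types, and Plvap were lower as well. The fourth, named after its value was seen, was the co-receptor Nrp1 (-1.21, adjusted p = 0.0455), which was not called on the reference scale (-0.74, adjusted p = 0.217), where 3 genes of the list were lower. Car4, a carbonic anhydrase of capillaries that neural cells also express, went the other way (4.72, adjusted p = 0.000112 in edgeR).

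Among 10 angiogenic ligands and receptors, Apln, the peptide apelin of sprouting vessels, was higher (1.85, adjusted p = 0.00692) and Vegfd was lower (-4.89, adjusted p = 6.4e-05). The other 8 were not called, including Vegfa (-1.33, adjusted p = 0.120). Over all genes 12.9% were higher and 13.1% lower. Of 6 lymphatic genes tested, Prox1 (5.18, adjusted p = 4.7e-06) and Reln (3.14, adjusted p = 0.0244 in edgeR) were higher in intra-CNS tumors, beside 12.9% of all genes. The other 4 lymphatic genes were not called and had negative fold changes (median of the list -1.27). Prox1 and Reln are also expressed by neural cells, and their cell source was not tested. The lymphatic receptor Lyve1, named after its value was seen, was not called (-3.77, adjusted p = 0.0593 in edgeR), at 0.0849 to 2.05 TPM in intra-CNS and 0 to 28.8 TPM in extra-CNS tumors. Of 10 pericyte genes, Notch3 was higher (1.90), Pdgfrb (-3.55), Anpep (-3.41) and Des (-3.50) were lower, and 6 were not called, beside 12.9% higher and 13.1% lower of all genes. Brain cell genes stood beside the Mfsd2a result. Of 5 genes each, 4 oligodendrocyte, 2 neuronal and 1 astrocyte gene were higher in intra-CNS tumors and none lower, beside 12.9% and 13.1% of all genes. Among them were Slc1a2, the glutamate transporter of astrocytes (5.37, adjusted p = 0.00103), the myelin gene Mog (6.08, adjusted p = 0.0101), the neuronal splicing factor Rbfox3 (5.28, adjusted p = 0.000141) and the vesicular glutamate transporter Slc17a7 (4.03, adjusted p = 0.00193, all in edgeR). Aqp4, the water channel of astrocyte endfeet, was not called (2.60, adjusted p = 0.233 in edgeR). The oligodendrocyte genes were far higher in 29048 than in the other 4 intra-CNS tumors (5472 against 19.8 to 127 TPM summed), and the intra-CNS medians of Mbp (14.1 TPM) and Mag (2.63 TPM) lay below the extra-CNS medians (19.7 and 2.76 TPM). The summed levels of these lists overlapped between intra-CNS and extra-CNS tumors (oligodendrocyte 19.8 to 5472 against 9.01 to 98.5 TPM, neuron 75.5 to 3083 against 9.24 to 307 TPM, astrocyte 128 to 1564 against 11.01 to 567 TPM). Without 29048 and R26P115, Mfsd2a had a log2 fold change of 2.96 (adjusted p = 0.00833) and Plvap one of -3.96 (adjusted p = 0.00284). No gene of these lists was called between the extra-CNS sites. The lists hold genes that other cells of these tumors express, and the part of such cells in these results was not tested.

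Over the 11 extra-CNS tumors, general endothelial genes ran together more than barrier genes did, as a description in which all points share library and tissue. Pearson's r of log2(TPM + 1) between general genes was 0.39 to 0.91 (median 0.56 over 10 pairs). Between barrier genes it was -0.28 to 0.58 (median 0.23 over 6 pairs), and between a general and a barrier gene it had a median of 0.08 (20 pairs). Among 15013 genes, those most like Cdh5 were Erg (r = 0.95), Icam2 (0.90), Mmrn2 (0.90), Myct1 (0.89) and Rasgrp3 (0.89), and Erg stayed at 0.95 without 43825B and 43987A. The first 3 of these were among the endothelial reference genes. Those most like Cldn5 were Nup98 (0.95), Psmd14 (0.93), Soat2 (0.92), Gpn2 (0.92) and Plin2 (0.92), none of them on the endothelial or barrier lists. Without 43992A and 29225D, which held the most Cldn5, these fell to between 0.76 and 0.90.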

How the data were processed

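RNA-seq of 16 mouse tumors was used. The authors aligned reads to mm10 with STAR (2.5.3a in the submitters' processing notes, which also name Trim Galore, FastQC and Picard) and deposited whole-number counts per gene without normalization. They also deposited TPM values of the same tumors, in which each gene is scaled by length and each library by its total. The gene annotation and the use of strand in counting are not given in the sources used here. All 16 columns of each table were matched to tumors by mouse name.

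Groups followed the tumor location in the labels. All genes with at least 1 count were tested in edgeR 4.0.16 (TMM, glmQLFit and glmQLFTest) under R 4.3.3, and p-values were adjusted by Benjamini-Hochberg over all of them. A call needed an adjusted p under 0.05 together with a log2 fold change above 1 in either direction. Fits were made on 5 against 11 tumors, on the 11 extra-CNS tumors alone, and on all tumors scaled to 14 endothelial genes. Fold changes are on edgeR's log2 scale. Differences of log2(TPM + 1) were tested with two-sided exact permutation tests (scipy 1.17.1), unadjusted, whose smallest p is 0.000458 for 5 against 11 and 0.00433 for 6 against 5 tumors. The code was tested on simulated data. Each tumor is from a separate mouse.

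Depth ranged from 17889968 to 110177889 counts. Gene positions came from GENCODE for GRCm38, the build of mm10. The members and lists were chosen with earlier results of these data known. Genes named from a list were up to 3 past the threshold with the largest change in each direction and a mean count of at least 50, with 10 genes named in any case. A gene that this rule names is not reported here. Genes most like Cdh5 and Cldn5 were sought among those with a mean of at least 1 TPM. Alternatives were DESeq2 1.42.0, its size factors in edgeR, limma 3.58.1, a filter on low counts, no fold threshold, mouse name scheme as a covariate, other pseudocounts, E6 or E8 alone, each extra-CNS site alone, other reference genes, 43990A as intracranial and each tumor left out. The omission of 29048 and R26P115 was added after seeing the data.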

Additional observations from a re-analysis of the deposited data

Results flagged for a closer look

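Of 30 groups of values (10 genes at 3 sites), 4 held a tumor whose distance to its nearest neighbour took up most of the range of its group (Dixon's test at the 95% level). Chance gives about 1 in 20 such groups. Values are log2(TPM + 1).

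Slco1c1 stood at 9.35 (654 TPM) in the intracranial extra-CNS tumor of R26P115. The same tumor held 199516 TPM of Ttr. Abcb1a stood at 6.10 (67.8 TPM) in the extracranial jaw tumor of R26P123, beside 57.4 TPM of Abcb1b. Vwf stood at 1.76 (2.39 TPM) in the intra-CNS tumor of R26P87, below the other 4 tumors at 6.38 to 8.21 TPM. That tumor also held the lowest Plvap of all, at 0.329 TPM. Slco1c1 stood at 0.59 (0.500 TPM) in the extracranial tumor of 43990A, which the study's own list places within the skull.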

How the results depend on the processing

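Between intra-CNS and extra-CNS tumors, Plvap and Mfsd2a kept their direction and their call in all edgeR, DESeq2 and limma alternatives, with TMM and on the reference scale. The fits on E6 tumors alone had only 43825B and R26P170 on the extra-CNS side. The call of Cdh5 held with DESeq2, against extracranial tumors alone, with a filter on low counts and with no fold threshold. It was lost with DESeq2's size factors, limma, the name scheme as covariate, intracranial extra-CNS tumors alone, E6 tumors alone, and without 29048 and R26P115 (adjusted p 0.0521 to 0.464 in edgeR or limma). The number of called genes among the 10 rose from 3 to 5 with DESeq2 (adding Pecam1 and Slco1c1, beside 29.1% of all genes) and to 5 against extracranial tumors alone (adding Cldn5 and Slco1c1, beside 26.2%), and was 2 to 4 with 1 tumor left out. On the reference scale it rose from 2 to 4 with DESeq2 (adding Slco1c1 and Abcb1a, beside 27.3% of all genes) and to 4 against extracranial tumors alone (adding Cldn5 and Slco1c1, beside 21.9%), and was 2 to 3 with 1 tumor left out. Over all genes, E6 tumors alone gave 3533 calls and, on the reference scale, 2294. Between the extra-CNS sites DESeq2 gave 490 calls, E8 tumors alone 0, and fits without 1 tumor 0 to 3. Higher and lower calls numbered 4879 and 1263 with Cdh5 alone as the reference, 4274 and 1134 with Pecam1 alone, and 4082 and 1324 with limma. No paired analysis was possible because no mouse contributed tumors to more than 1 group.

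Some other genes changed direction, and the cause was not tested. In log2 fold change between intra-CNS and extra-CNS tumors, DESeq2 gave Cldn5 0.78, Slco1c1 5.60 and Abcb1a 0.72. With 1 tumor left out, edgeR came close to these values. It gave Cldn5 0.77 without 43992A, Slco1c1 5.74 without R26P115 and Abcb1a 0.69 without R26P123. The DESeq2 calls of Slco1c1 and Abcb1a are therefore not taken as independent of these single tumors. Against extracranial tumors alone, Flt1 was 0.41, Cldn5 1.64 and Slco1c1 7.29, and against intracranial extra-CNS tumors alone, Kdr was -0.15 and Abcb1a 0.26. Limma gave Flt1 0.38, Vwf 0.53, Cldn5 1.34, Slco1c1 2.40 and Abcb1a 0.73. The name scheme as covariate gave Kdr -0.10, Cldn5 0.28, Slco1c1 4.44 and Abcb1a 0.071. E6 tumors alone gave Flt1 0.36, Vwf 0.085, Cldn5 1.87, Slco1c1 6.41 and Abcb1a 1.37. Without 29048 and R26P115, Slco1c1 was 4.87. On the reference scale, DESeq2 gave Cldn5 1.23, Slco1c1 5.62 and Abcb1a 1.15, and limma gave them as 1.18, 2.24 and 0.57. The covariate gave these genes as 0.28, 4.89 and 0.57, and E6 tumors alone as 2.41, 6.002 and 1.60. On the same scale, extracranial tumors alone gave Cldn5 1.71 and Slco1c1 6.93, intracranial ones Abcb1a 0.83, and the omission of 29048 and R26P115 Slco1c1 5.05. Cdh5 as the reference gave Cldn5 0.053 and Abcb1a 0.19, and Pecam1 as the reference gave Cdh5 0.015. Between the extra-CNS sites, limma gave Plvap -0.41 and Abcb1a 0.092, and the covariate Abcb1a 0.36.

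With 1 tumor left out, log2 fold changes between intra-CNS and extra-CNS tumors ran from -0.17 to 0.32 for Kdr, -0.40 to 0.097 for Flt1, -0.48 to 0.080 for Vwf, -0.79 to 0.77 for Cldn5, -2.64 to 5.74 for Slco1c1 and -0.96 to 0.69 for Abcb1a. On the reference scale they ran from -0.53 to 1.28 for Cldn5, -2.24 to 5.94 for Slco1c1 and -0.91 to 1.19 for Abcb1a. Between the extra-CNS sites they ran from -0.97 to 0.15 for Pecam1, -0.20 to 0.92 for Vwf, -0.26 to 0.46 for Plvap and -1.65 to 1.52 for Abcb1a, and stayed above 0 for Cldn5 (1.40 to 3.00). The log2(TPM + 1) differences there ran from -0.62 to 0.13 for Pecam1, -0.026 to 0.49 for Kdr, -0.12 to 0.62 for Vwf, -0.77 to 0.17 for Plvap and -0.25 to 1.002 for Abcb1a.

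Mouse names follow a numbered and an R26P scheme, and log2(TPM + 1) differences were also taken within each. Between intra-CNS and extra-CNS tumors, numbered mice gave Mfsd2a 3.53 (exact permutation test, p = 0.0121) and Plvap -2.15 (p = 0.0606). R26P mice gave Mfsd2a 2.85 and Plvap -3.37, both at the smallest p that an exact permutation test of 2 against 3 tumors allows (p = 0.200), while Pecam1 turned to 0.23, Cdh5 to 0.47 and Abcb1a to -0.50. Slco1c1 was 3.17 in numbered mice (exact permutation test, p = 0.0242). Between the extra-CNS sites, R26P mice set 2 tumors against 1 (R26P123), which tests nothing, and gave Pecam1 0.013, Vwf -0.67, Plvap 0.051, Cldn5 -2.02 and Abcb1a -3.89, and numbered mice Kdr -0.032. In numbered mice there, Mfsd2a was 2.06 (exact permutation test, p = 0.0571) and Cldn5 was 3.00 (exact permutation test, p = 0.0286). The log2(TPM + 1) difference of Slco1c1 between intra-CNS and extra-CNS tumors was 3.21 without R26P115 and 2.51 without it and 29048 (exact permutation tests, p = 0.002 and 0.00599). Between the extra-CNS sites it passed 0.05 without 43992A (2.34, exact permutation test, p = 0.0317) and without 43990A (2.03, exact permutation test, p = 0.0476).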
